A study of Homo sapiens with 10 samples.

Results

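The aryl hydrocarbon receptor (AHR) pathway was followed through 6 genes on 10 Affymetrix expression arrays of T47D breast cancer cells. These are TIPARP, CYP1B1, CYP1A1, AHR, ARNT and NQO1, 6 of the 11963 genes with a probe set mapped to 1 symbol alone, and together they have 13 probe sets. The genes were chosen by the R5020 differences of TIPARP and CYP1B1 in AP21967-treated cells and by their place in the pathway, so those differences, and the choice of the probe set with the highest mean as the lead for each gene, are given as a description and without a test. Of these probe sets, 4 belong to CYP1B1, 3 each to ARNT and NQO1, and 1 each to TIPARP, CYP1A1 and AHR.

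The cells derive from T47D-Y, a T47D line without progesterone receptor (PR), and carry an inducible vector that encodes the SUMO-deficient K388R mutant of PR-B (iKR), wild-type PR-B (iWT) or no receptor (iEV, empty vector). The dimerizer AP21967, or its ethanol vehicle, was given for 2 days to switch on the vector, and the synthetic progestin R5020, or ethanol, for 6 h. The iKR and iWT lines were each measured with both compounds, with AP21967 alone, with R5020 alone and with neither, and iEV with AP21967 and with neither. There was 1 array for each of the 10 conditions and 1 line for each vector, so that a difference between 2 arrays has no replicate check and the receptor cannot be told apart from the line that carries it.

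AHR is a ligand-activated transcription factor of the bHLH-PAS family. It waits in the cytosol in a complex with HSP90 and co-chaperones, moves to the nucleus when it binds planar aromatic compounds such as dioxin, pairs there with ARNT, and binds DNA elements with the core GCGTG. Its best known targets are the cytochrome P450 genes CYP1A1 and CYP1B1, whose enzymes hydroxylate aromatic hydrocarbons and estradiol. TIPARP is a further target, and its product, a mono-ADP-ribosyltransferase, acts back on AHR as an inhibitor. NQO1, a quinone reductase, is shared between the AHR and the NRF2 antioxidant response.

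RefSeq promoter windows of 300 bases, 250 before and 50 after a transcript start (GRCh38), were at hand for 5 of the 6 genes. The windows of the 3 genes with the largest R5020 differences among those 5 are shown because their transcripts differed in opposite directions with the hormone. Capitals mark the AHR element core GCGTG on either strand, which reads CACGC on the strand opposite.
TIPARP, chr3:156674340-156674639, plus strand: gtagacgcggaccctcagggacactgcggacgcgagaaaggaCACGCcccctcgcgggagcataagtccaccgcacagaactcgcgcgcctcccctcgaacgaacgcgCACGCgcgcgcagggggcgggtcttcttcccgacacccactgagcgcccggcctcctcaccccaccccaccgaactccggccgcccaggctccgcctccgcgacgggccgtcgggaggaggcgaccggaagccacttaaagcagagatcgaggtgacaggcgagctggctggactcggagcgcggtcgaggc
CYP1A1, chr15:74725479-74725778, minus strand: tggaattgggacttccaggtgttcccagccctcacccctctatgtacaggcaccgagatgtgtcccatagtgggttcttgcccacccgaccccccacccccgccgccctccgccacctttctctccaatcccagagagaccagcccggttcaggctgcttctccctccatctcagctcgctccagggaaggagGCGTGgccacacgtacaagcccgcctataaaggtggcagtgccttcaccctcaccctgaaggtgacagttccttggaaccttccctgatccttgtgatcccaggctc
AHR, chr7:17298402-17298701, plus strand: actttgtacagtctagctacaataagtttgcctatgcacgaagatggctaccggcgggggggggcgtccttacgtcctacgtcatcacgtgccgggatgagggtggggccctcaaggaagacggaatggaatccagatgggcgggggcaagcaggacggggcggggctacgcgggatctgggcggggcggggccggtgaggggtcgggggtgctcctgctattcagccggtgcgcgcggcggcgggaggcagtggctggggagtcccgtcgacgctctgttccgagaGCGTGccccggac

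The TIPARP window holds 2 cores, and the windows of CYP1A1 and AHR hold 1 each. NQO1 also has 1, ARNT has 0, and the windows of the 2 other RefSeq starts of TIPARP have 0. Of 35116 such windows over all genes, 36.5% hold at least 1 core. The steroid receptor half-site TGTTCT, searched on both strands, was in 0 of the 7 windows of these genes and is in 14.8% of all windows, and the palindromic steroid receptor site was also in 0 of the 7 and is in 0.39% of all windows. These matches describe the letters in short windows only.

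Values are Robust Multi-array Average (RMA) levels on the log2 scale, where 1 unit is a 2-fold difference. The arrays were closely alike, with medians of 8.118 to 8.148 and pairwise Pearson correlations over all probe sets of 0.9837 to 0.9985. PGR, the gene of the vector-borne receptor, was at 10.65 to 12.08 on the 8 arrays of iKR and iWT and at 6.17 and 6.25 in iEV, which sets iEV apart but cannot tell the mutant receptor from the wild type. It did not follow the AP21967 labels throughout. In iKR it was 11.38 with both compounds, 12.08 with AP21967 alone, 11.43 with R5020 alone and 10.65 with neither. In iWT it was 11.89 with both compounds, 11.34 with AP21967 alone, 11.77 with R5020 alone and 11.12 with neither. PGR mRNA was thus high without AP21967, and the arrays are called here by the compounds given. The paper states that receptor expression in these cells depends on AP21967 alone and shows receptor protein by western blot. These arrays read mRNA only and do not measure receptor protein. All 8 luminal epithelial markers examined, among them KRT8 and KRT18, lay between 8.68 and 15.04. Markers of other cells were mixed, with the basal keratins KRT14 at 5.71 to 6.02 and KRT5 at 7.79 to 8.16, ZEB1 at 5.33 to 5.72, VIM at 8.59 to 9.18 and COL1A1 at 9.59 to 9.77, and levels of different probe sets cannot be ranked against each other. As a yardstick for 2 arrays of 1 line, 95% of the 10911 genes that reached log2 6 on some array had R5020 differences between -0.25 and 0.22 in iKR without AP21967 and between -0.25 and 0.27 in iWT without it. With AP21967 this span was wider, from -0.63 to 0.65 in iKR and from -0.46 to 0.47 in iWT.

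TIPARP was higher with R5020 in cells given AP21967, by nearly the same amount in either receptor line. In iKR it was at 12.59 with AP21967 and R5020, 10.52 with AP21967 alone, 10.53 with R5020 alone and 10.34 with neither. In iWT it was at 12.17 with both compounds, 10.15 with AP21967 alone, 10.05 with R5020 alone and 10.05 with neither, and in iEV at 10.07 with AP21967 and 10.17 without. The 2 arrays that had both compounds thus stood apart, and the other 8 lay between 10.05 and 10.53.

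The R5020 difference of TIPARP with AP21967 was 2.07 in iKR and 2.02 in iWT, or 4.2 fold and 4.04 fold. These were the 13th and 12th highest of 10911 genes, and the iKR minus iWT difference of 0.06 was close to the median over all genes of 0.04. The response shared by the lines, fitted with limma, was 2.04 (standard error 0.082). Without AP21967 the R5020 differences were 0.19 in iKR and 0.00 in iWT.

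CYP1B1, which hydroxylates estradiol to catechol estrogens, was lower with R5020 in iKR cells given AP21967. In iWT cells given AP21967 it was lower by less, and in iWT it was also lower with R5020 without AP21967. Its lead probe set was at 9.88 in iKR with both compounds, against 11.74 with AP21967 alone, 11.60 with R5020 alone and 11.54 with neither. In iWT it was at 10.05 with both compounds, against 10.41 with AP21967 alone, 10.36 with R5020 alone and 10.60 with neither. In iEV it was at 11.68 with AP21967 and 11.66 without. On this probe set the iKR array with both compounds was the lowest of all 10. It lay just below the iWT array with both compounds, although the other iKR arrays were above all iWT arrays. On the other probe sets the iWT array with both compounds was the lowest, at 9.13, 10.16 and 7.57, against 9.26, 10.42 and 7.87 in iKR.

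The R5020 difference of CYP1B1 with AP21967 was -1.86 in iKR and -0.36 in iWT on the lead probe set. In iKR this was the 2nd lowest of 10911 genes, and the difference between the lines (iKR minus iWT), -1.49, was the lowest of all. The 3 other probe sets gave -1.18, -0.94 and -0.39 in iKR and -0.08, -0.14 and -0.11 in iWT, so all 4 were lower in iKR by more than in iWT, and the lead probe set gave the lowest value. The mean of the 4 was -1.09 in iKR and -0.17 in iWT. With single arrays, no test was made of this difference between the lines.

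CYP1A1, the prototype AHR target, was lower with R5020 in both receptor lines given AP21967. It was at 10.25 in iKR with both compounds, against 11.76 with AP21967 alone, 11.33 with R5020 alone and 11.33 with neither. In iWT it was at 9.07 with both compounds, against 9.95 with AP21967 alone, 9.86 with R5020 alone and 9.83 with neither. In each line the array with both compounds was the lowest, and the iWT one also lay below the iEV arrays at 9.38 with AP21967 and 9.35 without.

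The R5020 difference of CYP1A1 with AP21967 was -1.51 in iKR and -0.88 in iWT, the 6th and 19th lowest of all genes. Against the array of the same line with neither compound it was -1.08 and -0.75, a setting chosen after seeing the data. Its single probe set carries no second reading of the gene.

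AHR itself was at 8.72 in iKR with AP21967 and R5020, 9.77 with AP21967 alone, 9.49 with R5020 alone and 9.43 with neither. In iWT it was at 8.81 with both compounds, 9.29 with AP21967 alone, 8.86 with R5020 alone and 8.88 with neither, and in iEV at 9.41 with AP21967 and 9.34 without. The R5020 difference with AP21967 was therefore -1.05 in iKR and -0.48 in iWT. In iWT this depends on the array taken for comparison, because the array with both compounds differed by only -0.08 from the one with neither, whereas in iKR that difference was -0.71.

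ARNT, the partner that AHR needs to bind DNA, had a lead probe set that varied little, between 9.14 and 9.35 over the 10 arrays. Its R5020 difference with AP21967 was 0.03 in iKR and -0.03 in iWT. The other 2 probe sets were dimmer and gave -0.37 and -0.16 in iKR and -0.41 and -0.45 in iWT, so the probe sets of ARNT do not give 1 reading. NQO1 had R5020 differences with AP21967 of -0.15 in iKR and -0.06 in iWT on its lead probe set, and of -0.21 to -0.03 on the 2 others over both lines.

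**Figure D1:**
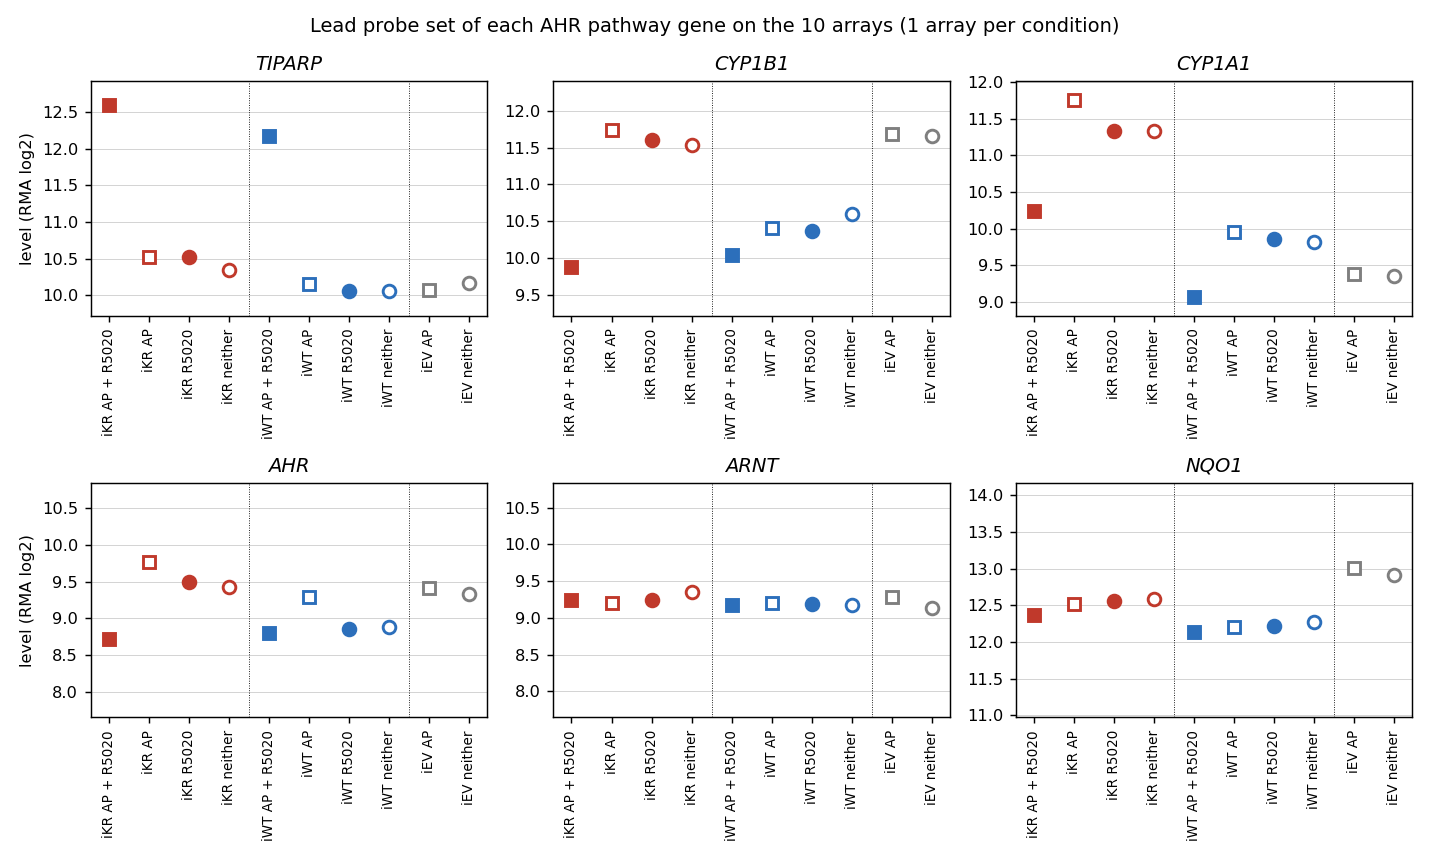
Each panel plots the lead probe set of 1 gene (y axis, RMA log2, all panels spanning the same range) on the 10 arrays (x axis), with iKR in red, iWT in blue and iEV in gray. Squares stand for AP21967 and circles for none, filled for R5020 and open for vehicle, and 1 point is 1 array. The 2 filled squares of TIPARP sit at 12.59 and 12.17, above the other 8 arrays, while those of CYP1A1 are the lowest of their lines.

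By these single-array differences, 1 of the 6 genes was higher by over 2.0 fold and 3 were lower in iKR with AP21967, and 1 was higher and 0 were lower in iWT. Over all genes, 0.999% were higher and 0.486% lower past this fold in iKR, and 0.513% were higher and 0.101% lower in iWT. Since the genes were chosen with this contrast in view, nothing is read from their share. Past 1.5 fold, 1 member was higher and 3 were lower in iKR (all genes 3.02% and 3.16%), and in iWT TIPARP was higher and CYP1A1 lower (all genes 1.59% and 1.02%).

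**Figure D2:**
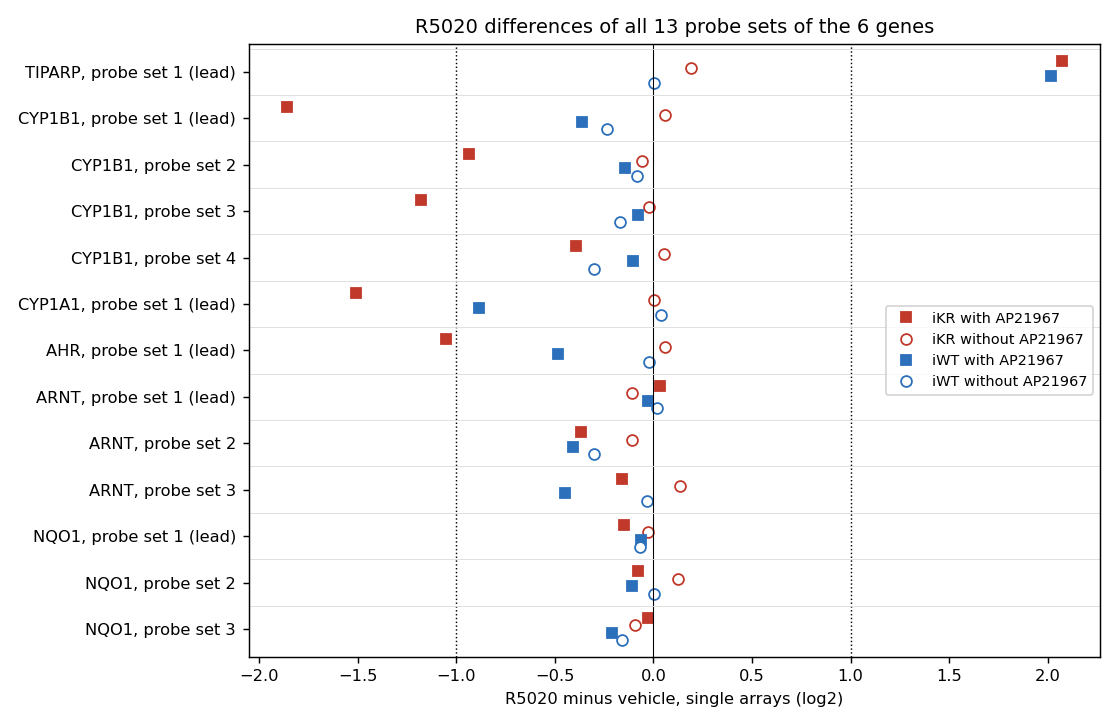
R5020 minus vehicle differences between single arrays (x axis, log2) for all 13 probe sets (y axis, grouped by gene), in iKR in red and iWT in blue, filled squares with and open circles without AP21967. Dotted lines mark 2.0 fold. TIPARP lies at 2.07 and 2.02 with AP21967, the 4 CYP1B1 probe sets at -1.86 to -0.39 in iKR, and the circles between -0.30 and 0.19.

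R5020 without AP21967 asked whether these genes answer to the hormone when no dimerizer is added. The R5020 effect with AP21967 minus that without it was counted as used in the choice of genes. The differences without AP21967 are therefore not independent of that choice. With iKR and iWT as 2 replicates of a shared response, limma called 0 of the 6 members higher and 0 lower, where 0.00917% of all genes were called higher and 0% lower. With an unadjusted p under 0.05 the members again gave 0 and 0, and all genes 1.96% and 1.99%. The shared effects were 0.10 for TIPARP (standard error 0.082), -0.09 for CYP1B1 (standard error 0.27), 0.02 for CYP1A1 (standard error 0.13) and 0.02 for AHR (standard error 0.12). These errors also draw on the arrays with AP21967, by which the genes were chosen, and CYP1B1, with lines far apart there, had the widest. Fitted on the 4 arrays without AP21967 alone, a setting chosen after seeing the data, the standard errors were 0.066 to 0.077, and limma again called 0 members higher and 0 lower (by unadjusted p also 0 and 0).

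AP21967 alone was compared with neither compound, within each line and as 1 effect shared by the 3 lines. The shared effect takes in iEV, which has no receptor, so it cannot tell the dimerizer from the receptor. AHR was higher by 0.34 in iKR, 0.41 in iWT and 0.07 in iEV, the 85th, 30th and 2334th highest of all genes, and CYP1A1 by 0.43, 0.13 and 0.03. Over the 3 lines, limma gave a shared effect of 0.27 for AHR (standard error 0.069, unadjusted p = 0.0047, adjusted p = 0.48) and 0.20 for CYP1A1 (standard error 0.076, unadjusted p = 0.034, adjusted p = 0.54). It called 0 of the 6 members and 0% of all genes in either direction (counting unadjusted p under 0.05, 2 members were higher and 0 lower, beside 4.59% and 4.4% of all genes). The AP21967 arrays on vehicle are also the arrays from which the R5020 differences above were taken, so a high value there enters both, with opposite signs.

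**Figure D3:**
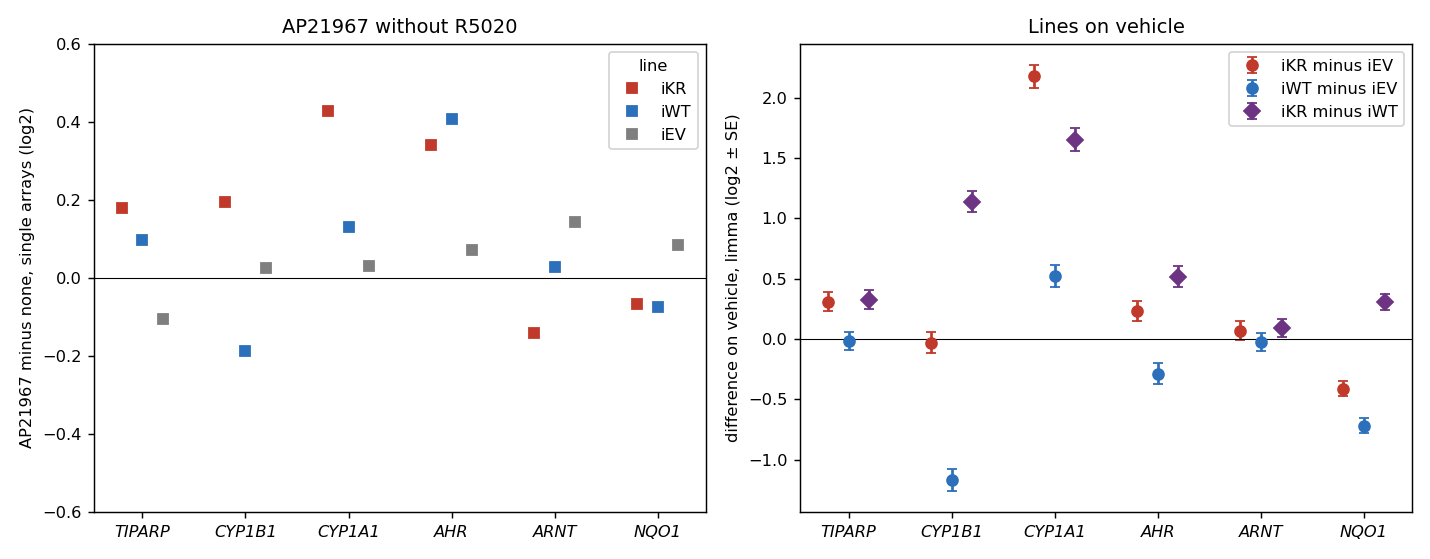
Left, the AP21967 minus none difference without R5020 (y axis, log2, 1 pair of arrays per point) of the 6 lead probe sets (x axis) in iKR, iWT and iEV. Right, the differences between lines over their vehicle arrays from limma (y axis, log2, bars are standard errors) for the same genes. On the left AHR is at 0.34, 0.41 and 0.07, and on the right CYP1A1 is at 2.18 for iKR minus iEV.

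The lines differed in these genes before any hormone was given. Taking the 2 vehicle arrays of a line as its replicates, limma compared the lines, each of which is 1 line per vector. Those given AP21967 are also baselines of the R5020 differences by which the genes were chosen. The adjusted p values of the members below are therefore not independent of that choice. CYP1A1 was highest in iKR, at 11.76 and 11.33 with and without AP21967, then in iWT at 9.95 and 9.83, and lowest in iEV at 9.38 and 9.35. The differences were 2.18 for iKR minus iEV (adjusted p = 5.7e-06 from limma), 0.52 for iWT minus iEV (adjusted p = 0.0058) and 1.65 for iKR minus iWT (adjusted p = 0.00033). No 2 lines overlapped. The iWT minus iEV call was lost without the iWT array with neither compound (adjusted p = 0.062).

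CYP1B1 followed another order on its lead probe set, with iKR close to iEV and iWT low. It was -1.17 in iWT minus iEV (adjusted p = 0.00012 from limma) and 1.14 in iKR minus iWT (adjusted p = 0.0013), whereas iKR minus iEV was -0.03 with a standard error of 0.089. On the 3 other probe sets iKR minus iWT was 1.06, 0.96 and 0.57, iWT minus iEV -1.08, -1.14 and -0.97, and iKR minus iEV -0.01, -0.18 and -0.40, so that the place of iKR relative to iEV varied with the probe set. With AP21967 and R5020 the lead probe set gave -0.16 for iKR minus iWT, and the others 0.13, 0.26 and 0.30.

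NQO1 was at 12.52 with AP21967 and 12.58 without in iKR and at 12.21 and 12.28 in iWT, against 13.00 and 12.92 in iEV, where it was highest. It was lower by limma in iKR (-0.41, adjusted p = 0.0029) and in iWT (-0.72, adjusted p = 0.00023) than in iEV. The iKR minus iWT difference of 0.31 (adjusted p = 0.038) was lost when any 1 of the 4 vehicle arrays of these lines was left out (adjusted p = 0.16 to 0.32).

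AHR differed by 0.52 in iKR minus iWT (adjusted p = 0.016 from limma) and by -0.29 in iWT minus iEV (adjusted p = 0.045). The iKR minus iWT call was lost without any 1 of the 4 vehicle arrays of these lines (adjusted p = 0.058 to 0.17), and the iWT minus iEV call without any vehicle array but the iEV one with AP21967 (adjusted p = 0.055 to 0.34), and also without _x_at and _s_at probe sets (adjusted p = 0.0515) and without the filter on level (adjusted p = 0.05004). TIPARP was higher in iKR than in iEV by 0.31 (adjusted p = 0.021), a call lost without the iKR or the iEV array with AP21967 (adjusted p = 0.19 and 0.13), and iKR minus iWT was 0.33 (adjusted p = 0.056).

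Counted over the members, 2 were called higher and 1 lower in iKR minus iEV, where 12.9% and 12.8% of all genes were called. In iWT minus iEV, 1 was higher and 3 lower, beside 12% and 11.8% of all genes. In iKR minus iWT, 4 were higher and 0 lower, beside 2.91% and 2.11%. Among these, the calls of AHR and NQO1 did not hold when arrays were left out, as given above. The vehicle arrays with AP21967 are also the baselines of the R5020 differences by which the genes were chosen. Nothing is therefore read from the counts of members. ARNT was called in none of the 3 comparisons, with differences of -0.02 to 0.09.

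Genes around the pathway were taken from 7 lists chosen for function, with earlier results of these data known. The calls and adjusted p values given for them are therefore a description of these arrays and not an independent test. Of 101 genes listed besides the members, 77 had a probe set and 71 reached log2 6 on some array. The AP21967-dependent R5020 response is the R5020 effect with AP21967 minus that without, shared by iKR and iWT. For this response, limma called 1 of the 71 higher and 0 lower. Over all genes 1.41% were called higher and 0.687% lower. The median fitted response over the 71 was -0.03. The differences and medians given for the lists below are those with AP21967, in iKR and in iWT. The adjusted p beside a gene belongs to the AP21967-dependent response, which also takes in the differences without AP21967.

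The 1 gene called was SLC7A5, which encodes an amino acid transporter that can carry AHR ligands of the tryptophan pathway. It was at 11.93 in iKR with both compounds, against 11.28, 11.18 and 11.22 on the other iKR arrays. In iWT it was at 11.36 with both compounds, against 10.77, 10.76 and 10.75. In each line only the array with both compounds was high, and limma fitted a response of 0.63 ± 0.11 (SE, adjusted p = 0.025). The call was lost without any 1 of the 4 arrays without AP21967 (adjusted p = 0.12 to 0.20).

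Among the 14 tested of the other AHR target genes, 1 was called higher and 0 lower, and their median R5020 difference was 0.01 in iKR and 0.05 in iWT. CYP1A2, a close paralog of CYP1A1, had differences of -0.85 in iKR and -0.19 in iWT (adjusted p = 0.25 from limma), and whether its probe set also reads CYP1A1 was not tested. CDKN1B, the cell cycle inhibitor p27, had -0.98 and -0.52 (adjusted p = 0.085). ABCG2, a drug efflux pump, had 0.72 and 0.25 (adjusted p = 0.34).

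Of the bHLH-PAS relatives, 0 of 9 were called, and the largest differences were those of HIF1A, the hypoxia factor that also pairs with ARNT (0.45 in iKR and 0.63 in iWT, adjusted p = 0.11 from limma), and ARNT2 (0.80 and 0.15, adjusted p = 0.24). Of the AHR complex and its chaperones, 0 of 7 were called, and the median differences were 0.01 in iKR and -0.06 in iWT. CUL4B had the largest mean difference of these, at -0.25 in iKR and -0.21 in iWT (adjusted p = 0.45 from limma). HSP90AB1, which holds AHR in the cytosol, had 0.09 and 0.02.

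The NRF2 genes, which share NQO1, gave 0 calls among 14, with median differences of -0.10 in iKR and -0.09 in iWT. TXNRD1, a thioredoxin reductase, had -0.79 in iKR and -0.38 in iWT (adjusted p = 0.054 from limma), GCLM, a subunit of the glutathione-making ligase, -0.57 and -0.15 (adjusted p = 0.14), and KEAP1, the NRF2 inhibitor, -0.37 and -0.55 (adjusted p = 0.15). GCLC, the other subunit of that ligase, had 0.22 and 0.47 (adjusted p = 0.42).

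The genes of ADP-ribosyl transfer and removal, among them relatives of TIPARP, gave 0 calls among 14, with medians of -0.01 in iKR and -0.07 in iWT. PARP12, another mono-ADP-ribosyltransferase, had 0.59 in iKR and 0.07 in iWT (adjusted p = 0.36 from limma), and TNKS2, a tankyrase, -0.40 and -0.16 (adjusted p = 0.38). The genes of CYP1 electron supply and estrogen catechol metabolism gave 0 calls among 9. EPHX1 had -0.24 and -0.50 (adjusted p = 0.46 from limma), and CYB5A, a cytochrome b5, 0.51 and 0.20 (adjusted p = 0.31). POR, the P450 reductase, had -0.12 and -0.36 with AP21967 and -0.28 and -0.14 without it (adjusted p = 0.97). The enzymes of tryptophan breakdown gave 0 calls among 4, with KYNU, a kynureninase, at -0.35 and -0.34 (adjusted p = 0.24).

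**Figure D4:**
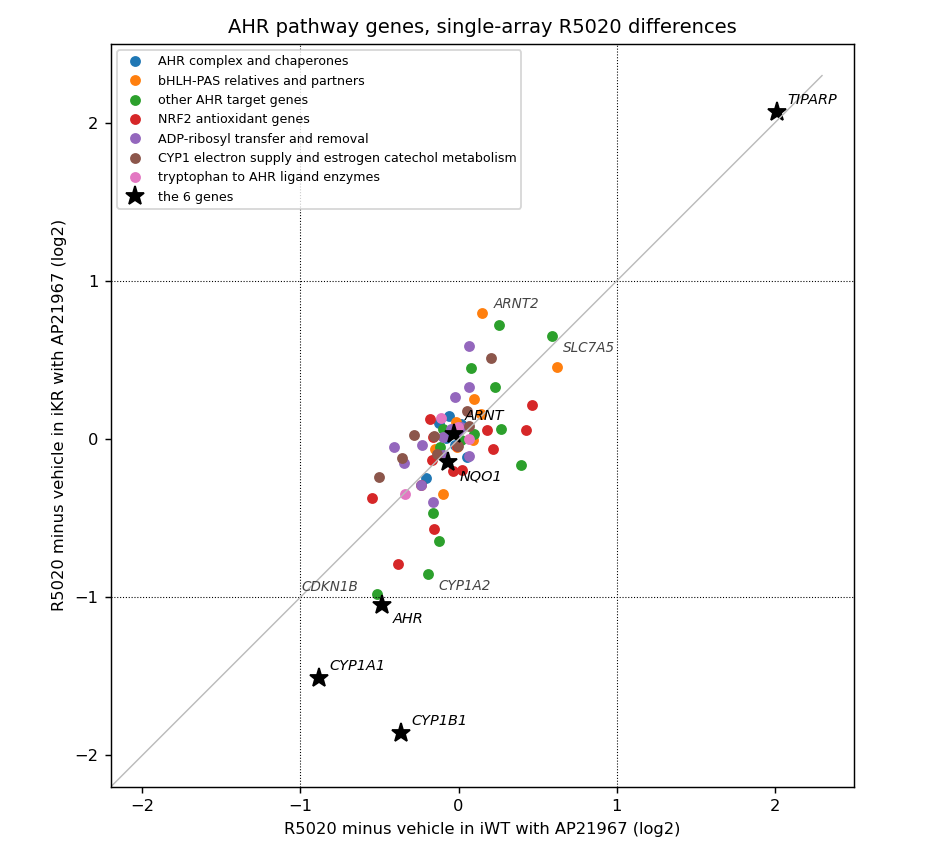
R5020 minus vehicle differences with AP21967 in iKR (y axis, log2) and in iWT (x axis, log2) for the 71 genes of the 7 lists (points, colored by list) and the 6 members (stars), with 1 pair of arrays per axis. Dotted lines mark 2.0 fold and the gray line equal differences. CYP1B1, at -1.86 in iKR and -0.36 in iWT, lies farthest below the line, and no list gene passes 2.0 fold in either line.

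By the Pearson correlation of lead probe sets over the 10 arrays, the 4 genes most like TIPARP were RASSF2 (0.992), CYRIA (0.992), SOS1 (0.991) and TRAF5 (0.990). Their R5020 differences with AP21967 ran from 0.77 to 3.58 in iKR and from 0.71 to 3.08 in iWT. Those most like CYP1B1 were AIDA (0.973), TRDMT1 (0.962), ECT2 (0.958) and SMC4 (0.957). The arrays share lines and treatments, so these values are a description. Of each 4, a Spearman ranking shares 0 for TIPARP and 1, ECT2, for CYP1B1. Between members the highest correlation was that of CYP1B1 with AHR (0.891).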

How the data were processed

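The authors processed the Affymetrix arrays in R with the affy package and Robust Multi-array Average, which adjusts background, quantile-normalizes and summarizes probes, so each deposited log2 value stands for 1 probe set. The version is not given in the sources used here, and present and absent calls were not used. Of 22277 probe sets, 19070 had 1 gene, 1043 several and 2164 none listed, 11963 genes were represented by their probe set of highest mean, and 10911 that reached log2 6 on some array were kept.

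Differences are between single arrays. Limma 3.58.1 (lmFit, eBayes) in R 4.3.3 was fitted to the 8 iKR and iWT arrays (4 means, by line and AP21967, plus 2 R5020 effects, by AP21967) and to the 6 vehicle arrays with line and AP21967. Each fit had 2 residual degrees of freedom, raised to 8.83 and 7.58 by the prior. Benjamini-Hochberg adjusted p under 0.05 over all genes was called. The fits were also run on simulated arrays with independent errors, which checks the code and not the assumptions made for these arrays. Lines or inducer states stand in for replicates. The error behind the p values is the disagreement between these lines or inducer states, moderated by the prior. It does not measure the spread between repeat cultures or other lines. The members and lists were chosen with earlier results of these data known. Named genes were the members, up to 4 genes of each list (called genes first, then those with the largest mean R5020 difference with AP21967), and the 4 most like TIPARP and CYP1B1. Promoters came from RefSeq (GRCh38). Alternatives were other probe set choices, normalizations, level filters, limma priors and arrays. Precision is limited by the number of arrays. Python 3.11.15 and matplotlib 3.10.9 were used.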

Additional observations from a re-analysis of the deposited data

Results flagged for a closer look

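In 2 cases the AP21967 difference of a lead probe set went in opposite directions in 2 lines, each by more than the standard deviation over genes of the R5020 differences without AP21967 (0.12). For CYP1B1 it was 0.20 in iKR and -0.19 in iWT, 0.38 apart. The 3 other CYP1B1 probe sets were lower with AP21967 in both lines, at -0.09, -0.10 and -0.31 in iKR and -0.28, -0.42 and -0.35 in iWT, so the opposite directions are those of the lead probe set only. For ARNT it was -0.14 in iKR and 0.14 in iEV, which makes iKR minus iEV -0.28. The 2 other ARNT probe sets went the other way, at 0.03 and 0.03 in iKR and -0.02 and -0.10 in iEV. Each value is 1 pair of arrays, and these differences between lines were not tested.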

How the results depend on the processing

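Past 1.5 fold instead of 2.0 fold, 330 genes were higher and 345 lower in iKR, against 109 and 53, and 174 and 111 in iWT, against 56 and 11, and 1 member was lower in iWT, against 0. For the AP21967-dependent response (154 genes higher and 75 lower), cyclic loess gave 35 lower, an intensity trend in the prior 127 lower, and all 10 arrays 325 and 203. Of the other pathway genes (1 higher and 0 lower), 0 were higher and 1 lower without _x_at and _s_at probe sets, 1 was lower after median centring and with a robust prior, 2 were higher and 1 lower with the trend, and 2 and 4 with all 10 arrays. TXNRD1 was the 1 lower gene in each of these settings but the last, where HES1, GCLM and KEAP1 were called with it. Without _x_at and _s_at probe sets, fewer genes were tested, and 792 were higher and 831 lower in iKR minus iEV, 748 and 770 in iWT minus iEV, and 169 and 123 in iKR minus iWT (1412 and 1397, 1313 and 1289, and 317 and 230 with all probe sets). The trend gave 521 and 467 in iKR minus iWT. With all 10 arrays 0 genes, and on the 4 arrays without AP21967 alone 7 genes, were higher with R5020 without AP21967, against 1, and without iEV 3 were higher with AP21967, against 0. CYP1B1 and NQO1 have no value without _x_at and _s_at probe sets.

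Leaving out each array in turn gave 94 to 801 higher and 22 to 727 lower for the AP21967-dependent response, with the most called when either iWT array with AP21967 was left out, and 0 to 6 higher and 0 to 7 lower of the other pathway genes. It gave 1 to 7 higher with R5020 without AP21967, 0 to 3 higher with AP21967, 823 to 1265 higher and 731 to 1156 lower in iKR minus iEV, 575 to 1243 and 597 to 1212 in iWT minus iEV, and 33 to 439 and 33 to 331 in iKR minus iWT. TIPARP in iKR minus iWT was called without either iEV array (adjusted p = 0.015 from limma), with the trend, with the mean of probe sets and with a mean level of 7 or more. AHR in iKR minus iEV was called with the trend (adjusted p = 0.036) and without the iEV array with neither compound (adjusted p = 0.010). The 6 members were not called for AP21967 or for R5020 without it under any alternative run. Where no cause is named, the cause was not tested. No paired analysis was possible by replicate number, because every array is labeled replicate 1, but the fits compare R5020 with vehicle within each line and AP21967 state.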
